A study of Mus musculus with 2 samples.

Results

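Erythroid progenitors that had not yet built up haemoglobin transcripts were taken from single-cell RNA-seq of mouse bone marrow by their own transcripts. A cell was a member when Car1, Klf1, Ermap and Rhag together gave at least 5 of every 10000 of its UMIs and the adult globin genes Hbb-bs, Hba-a1 and Hba-a2 together gave fewer than 50. UMIs are the molecule tags that count each captured transcript once. The rule took 2240 of 20241 kept cells, here called gate cells, of which 1102 came from the WT library and 1138 from the KO-labelled library. The members were chosen by the measured levels of these 7 genes, so those levels are a description and support nothing.

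The cells were LSK CD150+ cells, sorted as lineage-negative, Sca-1-positive, Kit-positive marrow cells that carry the SLAM receptor CD150, from the Runx1F/F Mx1-Cre model, in which Runx1 is loxP-flanked and Cre is driven by the interferon-inducible Mx1 promoter. Each genotype, RUNX1 WT and RUNX1 KO, has 1 library, and the stated question was what the sorted population is composed of in each. The sources used here do not give whether the WT mice carried the floxed allele or Cre, the number and age of the mice, or any inducing treatment. A single library per genotype leaves every difference without a replicate check, and no difference was tested. All intervals are exact 95% intervals that cover counting error only.

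Erythroid commitment runs from a progenitor shared with megakaryocytes, through burst-forming and colony-forming erythroid progenitors, to erythroblasts that fill with haemoglobin. GATA1 and KLF1 are the transcription factors that switch the erythroid genes on, erythropoietin acting through its receptor keeps colony-forming progenitors alive, and transferrin receptor brings in the iron for haem. Car1 encodes carbonic anhydrase I, an early erythroid mark in mouse, Ermap an immunoglobulin-type protein of the erythroid membrane, and Rhag the Rh-associated glycoprotein. Classical erythroid progenitors lack Sca-1, which the sort asked for.

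On GRCm38 the 4 genes of the rule lie apart. Car1 (ENSMUSG00000027556) runs on chromosome 3 from 14766216 to 14808368 and Klf1 (ENSMUSG00000054191) on chromosome 8 from 84901928 to 84905291. Ermap (ENSMUSG00000028644) runs on chromosome 4 from 119175457 to 119190011 and Rhag (ENSMUSG00000023926) on chromosome 17 from 40811126 to 40840754. Promoters from RefSeq (GRCm38.p6, 250 bases before to 50 after the gene start) are shown for 3 of them, because these genes define the cells, and for Epor, Rhd and Cpox, erythroid genes whose levels the results below turn on. Capitals mark, on either strand, the GATA-factor words AGATAA and AGATAG with their forms that begin with T, and the CACCC-type word CCNCNCCC, a kind of site that KLF factors can read.
Klf1, chr8:84901732-84902031, plus strand: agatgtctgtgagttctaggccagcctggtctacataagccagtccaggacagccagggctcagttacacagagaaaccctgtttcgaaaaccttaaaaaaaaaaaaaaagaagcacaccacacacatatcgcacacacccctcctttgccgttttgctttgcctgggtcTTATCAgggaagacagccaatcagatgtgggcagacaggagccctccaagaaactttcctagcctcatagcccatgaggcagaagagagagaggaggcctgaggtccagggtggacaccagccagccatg
Ermap, chr4:119189946-119190245, minus strand: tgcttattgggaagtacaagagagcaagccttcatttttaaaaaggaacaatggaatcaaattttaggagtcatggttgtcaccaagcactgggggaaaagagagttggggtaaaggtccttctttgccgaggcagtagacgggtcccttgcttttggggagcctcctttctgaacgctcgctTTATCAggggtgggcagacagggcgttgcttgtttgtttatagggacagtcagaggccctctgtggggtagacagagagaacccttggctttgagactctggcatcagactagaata
Rhag, chr17:40810899-40811198, plus strand: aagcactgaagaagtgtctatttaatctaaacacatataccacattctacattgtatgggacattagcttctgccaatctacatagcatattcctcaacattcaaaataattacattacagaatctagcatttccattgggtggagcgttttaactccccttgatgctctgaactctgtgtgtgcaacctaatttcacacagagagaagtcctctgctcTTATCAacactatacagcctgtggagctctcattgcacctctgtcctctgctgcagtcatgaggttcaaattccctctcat
Epor, chr9:21963527-21963826, minus strand: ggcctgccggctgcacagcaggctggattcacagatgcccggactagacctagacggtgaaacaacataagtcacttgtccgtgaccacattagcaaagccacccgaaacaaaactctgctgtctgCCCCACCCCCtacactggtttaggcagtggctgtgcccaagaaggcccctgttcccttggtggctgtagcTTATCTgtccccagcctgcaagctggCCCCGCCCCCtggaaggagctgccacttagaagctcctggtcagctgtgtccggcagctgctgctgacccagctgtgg
Rhd, chr4:134864286-134864585, plus strand: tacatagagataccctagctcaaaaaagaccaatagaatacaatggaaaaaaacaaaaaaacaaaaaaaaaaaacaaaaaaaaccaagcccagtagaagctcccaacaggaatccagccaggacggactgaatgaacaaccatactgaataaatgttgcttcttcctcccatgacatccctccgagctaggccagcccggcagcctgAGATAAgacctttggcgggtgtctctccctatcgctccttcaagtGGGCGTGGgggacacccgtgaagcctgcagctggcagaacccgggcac
Cpox, chr16:58669958-58670257, plus strand: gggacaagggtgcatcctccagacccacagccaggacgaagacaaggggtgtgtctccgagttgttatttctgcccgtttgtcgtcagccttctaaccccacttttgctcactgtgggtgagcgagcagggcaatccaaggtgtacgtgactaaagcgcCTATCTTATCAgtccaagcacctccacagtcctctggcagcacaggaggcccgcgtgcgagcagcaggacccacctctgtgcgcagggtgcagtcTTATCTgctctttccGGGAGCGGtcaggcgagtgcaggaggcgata

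A GATA word and no CACCC-type word stood in each of the 3 promoters of the rule genes, the GATA word 80 bases before the start in Klf1, 67 in Ermap and 31 in Rhag. Epor held it 54 bases and Rhd 43 bases before the start, and Cpox held it 91 and 86 bases before the start, in overlapping words, and once behind it. Epor, Rhd and Cpox also held the CACCC-type word. Such a word is common: 9778 of 32851 RefSeq promoters of this length (29.8%) held at least 1, and 16251 (49.5%) held the CACCC-type word, whose matches can overlap each other. Both words stood in 10.2% of all promoters. Distances here count from the RefSeq start. The positions of the rule genes given above are from GENCODE, whose starts for Klf1, Ermap and Rhag differ from it. A match describes letters only, and no binding was measured here.

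In the WT library the gate held 11.6% of 9472 kept cells (interval 11.0 to 12.3), and in the KO-labelled library 10.6% of 10769 (9.99 to 11.2). Gate cells were deeper than other kept cells in both libraries, with a median of 13010 against 9656.5 UMIs in the WT library and 11250.5 against 9183 in the KO-labelled one. The libraries held 113732196 and 120578398 UMIs in all, and 33 barcodes were shared between their kept cells, 3 of them between gate cells. Doublets were not removed. By Y-linked and Xist UMIs the WT gate held 880 male and 0 female cells, whereas the KO-labelled gate held 102 male and 951 female cells (83.6%), so sex and genotype label mostly cannot be told apart. Ratios among male cells are given for some of the results below, and every other ratio between the libraries carries this limit. Gata1 and Slc38a5, both named below, lie on the X chromosome.

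Runx1, the targeted gene, was higher in the gate of the KO-labelled library. It stood at 55.3 CPM (UMIs scaled to the total of the summed gate cells) in the WT gate and 84.1 CPM in the KO-labelled gate, a ratio of 1.52 (1.40 to 1.65), beside 1.92 in other kept cells. Among male gate cells the ratio was 1.31. These 3′ tags check nothing about a deletion elsewhere in the gene, and the sources used here do not name the deleted part. Directions below are those of the library labelled KO.

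The gate rested mostly on Car1. Its level was 2965 CPM in the WT gate and 2331 CPM in the KO-labelled gate, against 22.1 and 26.6 CPM in other kept cells. Klf1 stood at 196 and 216 CPM, Ermap at 199 and 188 CPM, and Rhag at 22.8 and 84.4 CPM, in that order of libraries. Car1, Klf1 and Ermap thus lay near each other between the libraries, while Rhag was 3.70 times as high in the KO-labelled gate. Without Car1, 811 WT gate cells (73.6%) and 794 KO-labelled gate cells (69.8%) would have been under the minimum of 5. Just outside the rule, 55 WT and 68 KO-labelled cells scored 4 to 5, and just inside it 47 and 75 scored 5 to 6. Only 2 WT and 5 KO-labelled gate-score cells had 40 to 50 globin UMIs per 10000, and 0 and 1 had 50 to 60, so few cells lay near the globin limit.

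The score spread widely inside the gate, as the plot of gate cells by score and by later erythroid genes shows. In the WT library 674 gate cells scored 20 or more, 250 scored 10 to 20 and 178 scored 5 to 10, whereas the KO-labelled library had 573, 279 and 286. A band is a range of the score and not a cell type. No globin UMI was seen in 84.9% of WT and 64.4% of KO-labelled gate cells.

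**Figure D1:**
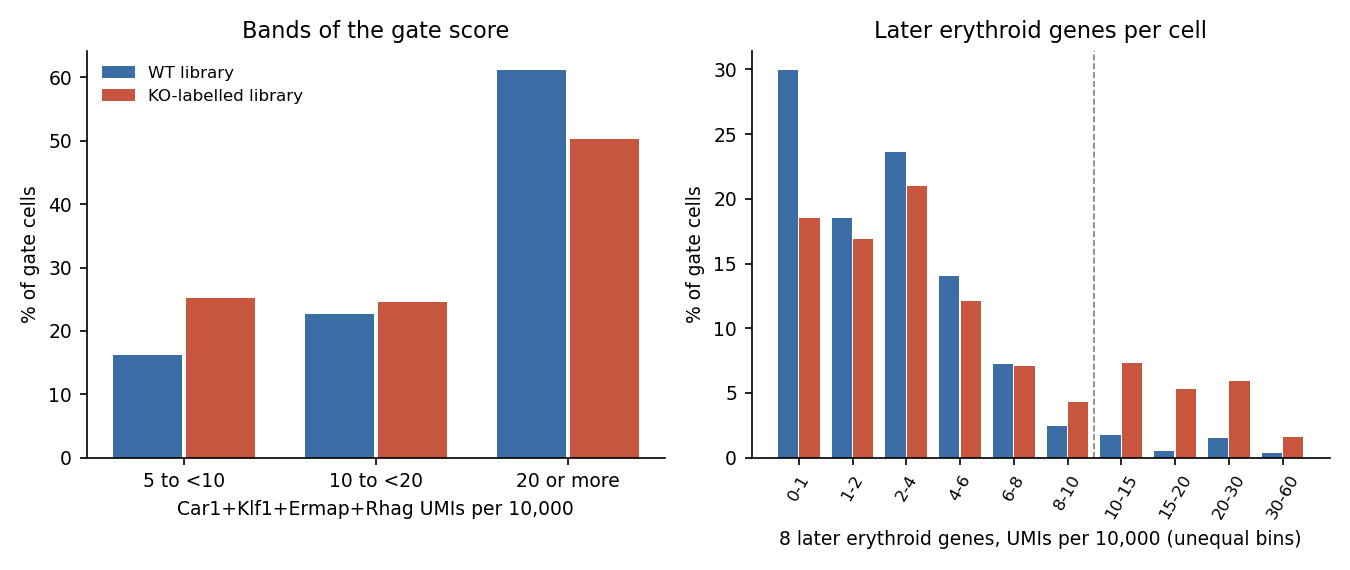
Left, share of gate cells (y axis, percent) in 3 bands of the gate score (x axis, UMIs per 10000) for the WT library (blue, 1102 cells) and the KO-labelled library (red, 1138 cells). Right, share of gate cells by summed UMIs per 10000 of 8 later erythroid genes in unequal bins, with a dashed line at 10, over which lie 46 WT and 228 KO-labelled cells.

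Against all other kept cells of the same library, gate cells carried a broad erythroid programme outside the genes of the rule. Over 5776 genes measured in both libraries (at least 20 CPM in the gate or the other cells), 123 (2.13%) passed 2-fold upwards in the gate in both libraries and 391 (6.77%) passed it downwards. The genes furthest up included Sphk1, which makes the lipid signal sphingosine-1-phosphate, Slc25a21, a mitochondrial carrier, and Pklr, the pyruvate kinase of liver and red cells. Sphk1 stood at 54.1 CPM in the WT gate and 0.423 CPM outside it, and at 92.8 and 0.917 CPM in the KO-labelled library, ratios of 128 and 101. Pklr stood at 22.9 against 0.275 CPM and at 21.4 against 0.289 CPM. Both genes were near 0 outside the gate in either library.

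**Figure D2:**
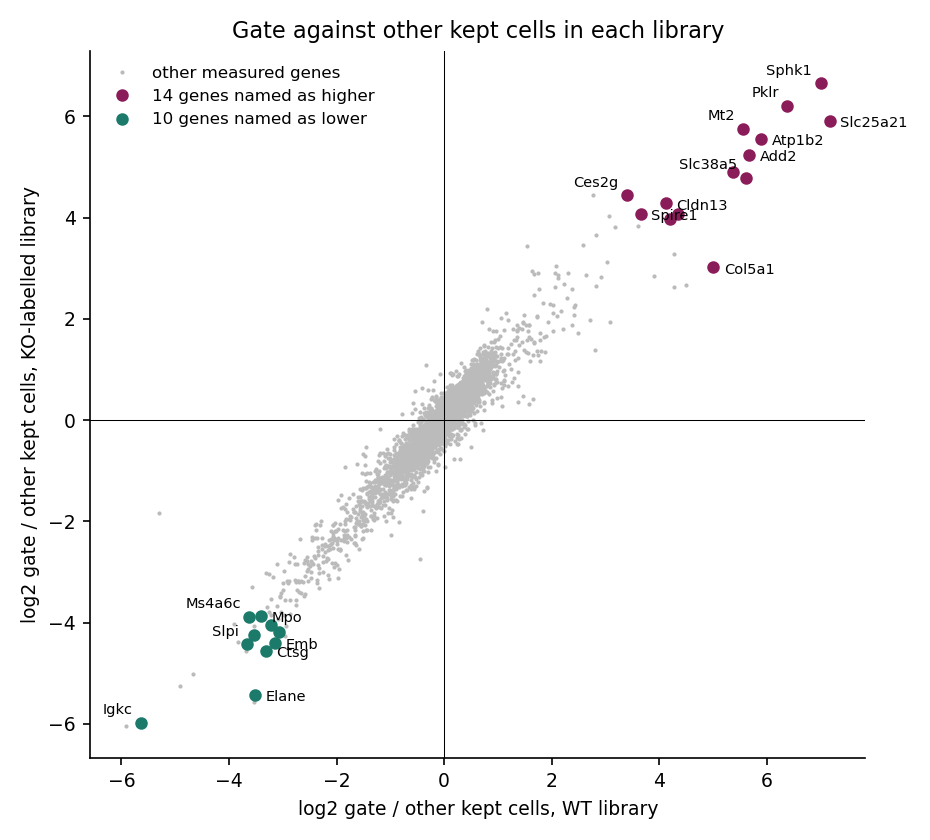
Log2 ratio of CPM in gate cells to CPM in other kept cells, in the WT library (x axis) and the KO-labelled library (y axis), for each of the 5776 genes measured in both (grey), with the 14 genes named as higher (purple) and 10 named as lower (green), most of them labelled. Sphk1, Slc25a21 and Pklr lie at the upper right and Igkc and Elane at the lower left.

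Of 21 measured erythroid factors, 3 were at least 2-fold higher in the gate in both libraries and 1 lower, with a median log2 ratio of 0.26 beside -0.02 over all genes. Gata1 stood at 89.9 CPM in the WT gate and 100 CPM in the KO-labelled gate, against 34.8 and 42.7 CPM outside. Nfia, a factor linked to the erythroid branch, was 3.05 and 3.02 times as high, Klf3, a KLF-family repressor, 2.86 and 2.54 times, while Cited2, a transcriptional co-regulator active in stem cells, stood at 0.287 and 0.284 of its outside level. Tal1, Zfpm1 and Nfe2, which megakaryocytes share, had ratios between 0.704 and 1.27.

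The receptor for erythropoietin stood out among its pathway. Epor had 61.6 CPM in the WT gate and 77.6 CPM in the KO-labelled gate, against 13.1 and 12.1 CPM in other cells. With each cell thinned to 3000 UMIs, 13.9% of WT and 17.1% of KO-labelled gate cells had an Epor UMI, against 0 of 386 and 0.412% of granulocyte-monocyte gene cells (cells with at least 50 UMIs per 10000 of Mpo, Elane, Prtn3 and Ctsg and a gate score under 5), which should lack it. Unthinned, the gate shares were 50.8% and 51.7%, against 1.81% and 1.85%, at median depths of 13010 and 11250.5 against 16960.5 and 17592.5 UMIs. Of the 9 measured pathway genes Epor was the 1 at least 2-fold higher in both libraries. Pim1 and Stap1 were the 2 lower ones, and Jak2 and Stat5a, the kinase and factor behind the receptor, had ratios between 0.927 and 1.10.

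Haem and iron genes were mostly higher in the gate. Of 13 measured haem synthesis genes, 11 were higher in the gate in both libraries and 4 at least 2-fold, with a median log2 ratio of 1.07. The list summed to 2090 and 2722 CPM in the WT and KO-labelled gates. It reached 13570 and 13140 CPM in cells that met the score minimum but held at least 50 globin UMIs per 10000. Cpox, an enzyme of the porphyrin steps, stood at 100 CPM in the gate and 23.8 CPM outside it in the WT library, and at 223 and 27.0 CPM in the KO-labelled one. Blvrb, biliverdin reductase B, stood at 786 and 957 CPM against 104 and 134 CPM. Among 11 iron genes, 6 were at least 2-fold higher, with the transferrin receptor Tfrc at 51.6 and 88.1 CPM against 14.4 and 17.7 CPM, and the iron exporter ferroportin, Slc40a1, at 24.3 and 25.9 CPM against 1.99 and 1.81 CPM. Alas2, the erythroid enzyme that opens haem synthesis, was still at 0.276 and 0.741 CPM, and the anion exchanger Slc4a1 at 0.442 and 0.952 CPM. Of the markers that the rule did not use, Gata1, Epor, Tfrc, Car2 and Blvrb thus stood above other cells, and these 2 genes of haemoglobin-forming erythroblasts near 0.

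Of 15 measured red cell membrane and blood group genes, 7 were at least 2-fold higher in both libraries and 1 lower, with a median log2 ratio of 1.496. Rhd, the Rh antigen gene, stood at 88.3 CPM in the WT gate and 189 CPM in the KO-labelled gate, against 4.32 and 11.3 CPM outside. The membrane skeleton genes Ank1 and Add2 had ratios of 18.4 and 51.1 in the WT library and 15.6 and 37.6 in the KO-labelled one. Early erythroid progenitor markers counted 18 of 25 at least 2-fold higher, with a median log2 ratio of 2.18. Examples are Car2, a second carbonic anhydrase, at 1332 and 1873 CPM against 636 and 461 CPM, and Atp1b2, a sodium pump subunit, at ratios of 59.6 and 47.1. Apoe, an apolipoprotein on the same list, had ratios of 1.24 and 0.885. That list is not particular to the gate: it summed to 7507 and 8776 CPM inside it and 5518 and 7371 CPM in cells scoring 2 to 5. In cells that met the score minimum but held at least 50 globin UMIs per 10000 it summed to 13873 and 13908 CPM.

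Transcripts of the other lineages were lower in the gate. All 11 measured megakaryocyte and platelet genes were lower in both libraries, 10 of them at least 2-fold, with a median log2 ratio of -2.47. Pf4, platelet factor 4, stood at 211 CPM in the WT gate and 40.9 CPM in the KO-labelled gate, against 1726 and 569 CPM outside. After thinning, 13.9% and 8.41% of gate cells had a Pf4 UMI, close to the 12.4% of WT granulocyte-monocyte gene cells and above the 3.50% of the KO-labelled ones. Whether that share is background in the WT library was not tested. From the lowest to the highest band, the listed genes summed to 1112.5, 764 and 340 CPM in the WT gate. In the KO-labelled gate they summed to 559, 412 and 207 CPM. The summed level of the list was 493 and 311 CPM in the gate, against 8739 and 4742 CPM in megakaryocyte gene cells (at least 5 UMIs per 10000 of Itga2b, Gp9 and Gp1bb and a gate score under 5), and 15 and 14 gate cells passed that minimum too.

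All 11 granulocyte and monocyte progenitor genes were lower too, 9 of them at least 2-fold, with a median log2 ratio of -3.54. Mpo, myeloperoxidase, stood at 38.1 and 36.6 CPM in the gate against 404 and 535 CPM outside, and Elane, neutrophil elastase, at 35.5 and 11.5 CPM. Gate cells that also passed the granulocyte-monocyte minimum numbered 4 in each library. The summed level of the 11 listed mast cell and basophil genes was 106 CPM in the WT gate and 58 CPM in the KO-labelled gate, with Cma1 and Tpsb2 at 0 in both. The sum hides unlike genes: the basophil proteases Prss34 and Mcpt8 stood at 31.7 and 23.1 CPM in the WT gate and 0.370 CPM each in the KO-labelled one, and the mast cell protease Cpa3 at 19.9 and 41.5 CPM. The T and NK cell genes summed to about 1 CPM in either gate. Macrophage genes summed to 10 and 2 CPM. The part of these transcripts in the results was not tested.

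Stem cell genes were lower as well. Of 13 measured, 12 were lower in both libraries and 8 at least 2-fold, with a median log2 ratio of -1.82. Cd34, a surface mark of early progenitors, had 13.9 and 15.7 CPM in the gate against 108 and 183 CPM. Ly6a, the Sca-1 gene, had 4.81 and 7.88 CPM against 41.3 and 56.7 CPM, although the sort asked for the Sca-1 protein. Kit transcripts were nearer to those of other cells, at 134 and 113 CPM against 153 and 146 CPM.

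General growth genes also separated the gate. All 29 measured ribosome biogenesis genes were higher in both libraries, 8 of them at least 1.5-fold (6.79% of all genes) and 0 at least 2-fold, with a median log2 ratio of 0.63. Npm1, nucleophosmin, stood at 3482 and 3326 CPM against 2243 and 2124 CPM. All 8 heat shock genes were higher, 4 of them at least 1.5-fold and 0 at least 2-fold in both libraries, with Hspd1, the mitochondrial chaperonin, at ratios of 1.78 and 2.42. The 11 immediate early genes were all lower, 5 at least 2-fold, among them Fos with ratios of 0.399 and 0.257. Of 40 S phase genes 0 were 2-fold apart in either direction, with a median log2 ratio of -0.01. The survival gene Bcl2 stood at 0.278 and 0.297 of its outside level.

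Levels differed in steps along the score, as the plot of levels along the gate score shows. In the WT library Epor went from 11.8 CPM in cells with a score of 0 to 37.8, 52.7 and 67.2 CPM over the 3 bands of the gate and 119 CPM in the 27 haemoglobin-rich cells, which have the same score minimum but at least 50 globin UMIs per 10000. The KO-labelled series ran from 9.04 to 53.8, 59.5 and 90.3 CPM and 112 CPM in 80 haemoglobin-rich cells. Gata2, the factor that GATA1 replaces on many genes, ran the other way, from 227 to 201 and 80.0 CPM over the WT bands and from 174 to 131 and 60.7 CPM over the KO-labelled ones. Within the gate Apoe was highest in the lowest band, with 2512 and 3283 CPM at scores of 5 to 10, and stood at 1105 and 1362 CPM at 20 or more and at 57.6 and 354 CPM in haemoglobin-rich cells. Cells with different scores share 1 library and differ in depth, with median UMIs of 8037 in the lowest and 17637.5 in the highest WT band.

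**Figure D3:**
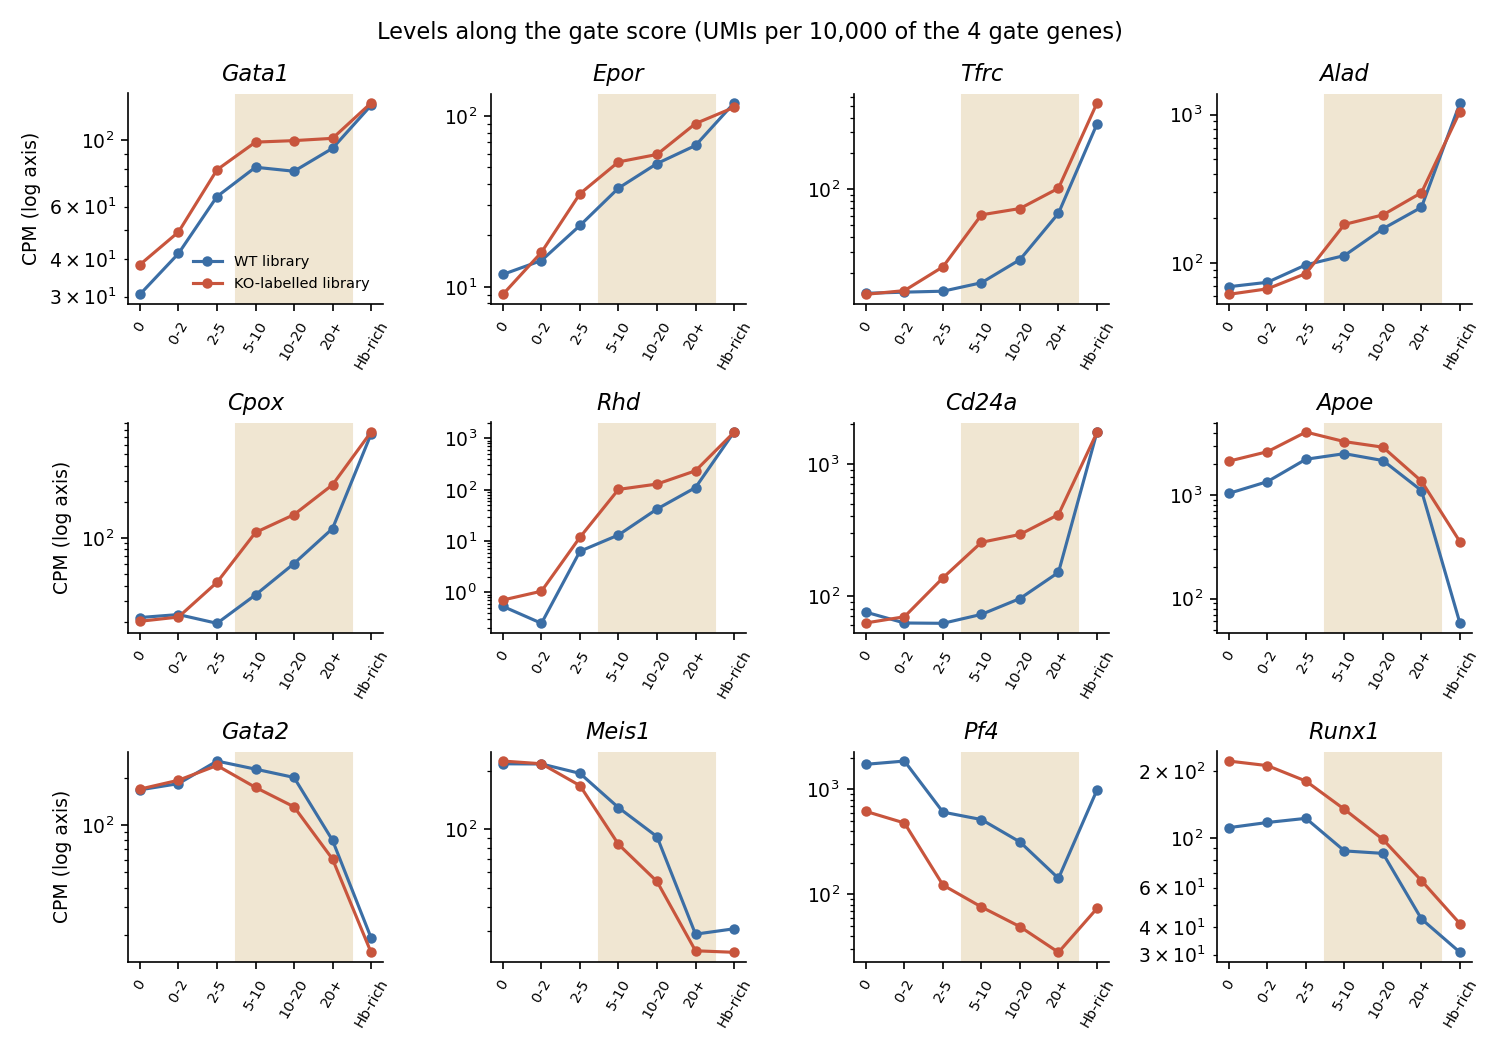
CPM (log y axis) of 12 genes along the gate score (x axis, UMIs per 10000 of the 4 gate genes, then haemoglobin-rich cells) in the WT (blue) and KO-labelled (red) libraries, with the 3 bands of the gate shaded. Epor, Tfrc, Alad, Cpox, Rhd and Cd24a climb and Gata2 and Meis1 drop from the lowest to the highest band in both libraries.

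Inside the gate, the KO-labelled library stood apart from the WT library in a small set of genes. Among the 5515 genes that reached 20 CPM in the gate of a library, 39 (0.707%) passed 2-fold upwards and 33 (0.598%) downwards in the KO-labelled gate, and the median log2 ratio over all was -0.04. The 39 include 3 genes of the rule, Rhag, Hbb-bs and Hba-a1. Of 21 measured erythroid factors and 13 haem, 11 iron, 16 membrane, 25 early and 9 late erythroid genes, 0 were at least 2-fold lower. Over all genes that share was 0.598%, so 0 in lists this short is near it and says little about erythroid genes. Cpox was 2.22 times as high (2.101 to 2.347), Rhd 2.14 times (2.02 to 2.28), Cldn13, a claudin found on red cell precursors, 2.77 times (2.54 to 3.02), and Ctse, the protease cathepsin E, 2.62 times (2.44 to 2.81). In other kept cells those ratios were 1.13, 2.63, 2.49 and 1.74. Among male cells of the gate they were 2.07, 1.89, 3.01 and 2.42.

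By list, 11 of 13 haem synthesis genes were higher in the KO-labelled gate, 1 of them at least 2-fold and 4 at least 1.5-fold, where 1.96% of all genes were at least 1.5-fold higher. Their median log2 ratio was 0.29. Alad, aminolevulinate dehydratase, stood at 212 and 259 CPM, a ratio of 1.22 (1.17 to 1.27). Under and over the limit of 8 later erythroid genes described below, the Alad ratio was 0.864 and 0.879. Of 11 iron genes 8 were higher, with a median of 0.21, and Tfrc at a ratio of 1.71 (1.57 to 1.85). Of 16 membrane genes 11 were higher, with a median of 0.25, and 16 of 25 early progenitor markers, with a median of 0.16. Over all 5515 genes 42.9% had a ratio over 1, and 63.1% did with TMM scaling (a scaling that trims the most extreme genes). Lists of other lineages lay the other way, with 0 of 8 granulocyte and monocyte genes higher and a median of -0.43, 1 of 6 megakaryocyte genes and -0.55, and 4 of 9 stem cell genes and -0.29. Their medians turned too without the deepest cells, to 0.14, 0.62 and 0.18. The globin genes Hbb-bs and Hba-a1, which the rule limited, stood at 19.8 and 16.7 CPM in the WT gate and 69.4 and 42.4 CPM in the KO-labelled one.

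The medians of these 4 lists turned when the deepest cells were left out. Without the deepest 5% of kept cells of each library, the median log2 ratio was -0.08 for haem synthesis, -0.07 for iron genes, -0.01 for membrane genes and -0.10 for early progenitor markers. Rhd then had a log2 ratio of -0.10 and Tfrc -0.03, while Cpox stood at 0.32, from 1.15 with all cells, and Rhag, a gene of the rule, at 1.28, from 1.89. Cldn13 stood at 0.18, from 1.47, and Ctse at 0.37, from 1.39. The late erythroid list, with 8 of 9 genes higher and a median of 0.39, stood at 0.16 without those cells. All 4 lists that turned kept their direction among male cells only, with medians of 0.30, 0.21, 0.31 and 0.21, and after thinning to 3000 UMIs, with 0.11, 0.22, 0.30 and 0.17.

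Gate cells were also counted by 8 later erythroid genes, Rhd, Rhag, Cldn13, Ctse, Cpox, Tspan33, Nxpe2 and Slc38a5, chosen after their values were seen, so their sum is a description. Rhag belongs to the rule as well. At 10 or more UMIs per 10000 of these genes lay 46 WT gate cells (4.17%, 3.07 to 5.53) and 228 KO-labelled gate cells (20.04%, 17.7 to 22.5). In the highest band the shares were 6.08% and 30.9%, in the middle band 5 of 250 cells and 10.8%, and in the lowest 0 of 178 cells (up to 2.05%) and 7.34%. Male KO-labelled gate cells had 19.6% (20 of 102, 12.4 to 28.6) and female ones 190 of 951. After thinning to 3000 UMIs the shares were 10.4% and 24.3%. Without the deepest 5% of kept cells they were 2.18% (1.33 to 3.34) and 3.72% (2.56 to 5.21). Intervals here cover counting error within each library and do not test the libraries against each other. Cells over the limit were deep, with a median of 28676 UMIs in the WT and 35490 in the KO-labelled library against 12391.5 and 9300.5 under it. Whether doublets had a part in this was not tested. Near the limit, 27 WT and 49 KO-labelled cells lay at 8 to 10 and 14 and 38 at 10 to 12, so the count moves with where the limit is set.

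In both libraries Gata2 and Apoe were lower and Ccne1 was higher over the limit. Gata2 stood at 124 and 150 CPM under it and 15.1 and 21.4 CPM over it, and Apoe at 1537 and 3362 CPM under it and 120 and 212 CPM over it. Ccne1, a cyclin of S phase entry, stood at 21.04 and 19.88 CPM under it and 130 and 112 CPM over it. Clca3a1 was higher over the limit in the WT library, at 17.3 against 8.94 CPM, and lower in the KO-labelled one, at 32.3 against 40.8 CPM. Between the libraries, Tfrc had a KO-labelled to WT ratio of 0.931 under the limit and 0.982 over it, and Car2 0.825 and 0.956. Other erythroid genes outside the 8 were further apart, with Car1 at 0.710 and 0.890, Ermap at 0.597 and 0.804, and the globin gene Hbb-bt at 2.48 and 0.544. Among the 8, Rhag, also a gene of the rule, had 2.16 and 1.44, Cpox 1.17 and 1.23, and Slc38a5 1.51 and 1.02. Cldn13 had 1.07 and 0.827, and Ctse 1.23 and 0.899. Under 1 on both sides were Rhd at 0.832 and 0.837, Tspan33 at 0.891 and 0.862, and Nxpe2 at 0.372 and 0.844. The split used the summed level of these 8 genes, which constrains their ratios on each side, so those ratios are a description. Of the 39 genes that were at least 2-fold higher in the whole gate, 31 were so among cells under the limit, and of the 33 lower ones 19 were.

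**Figure D4:**
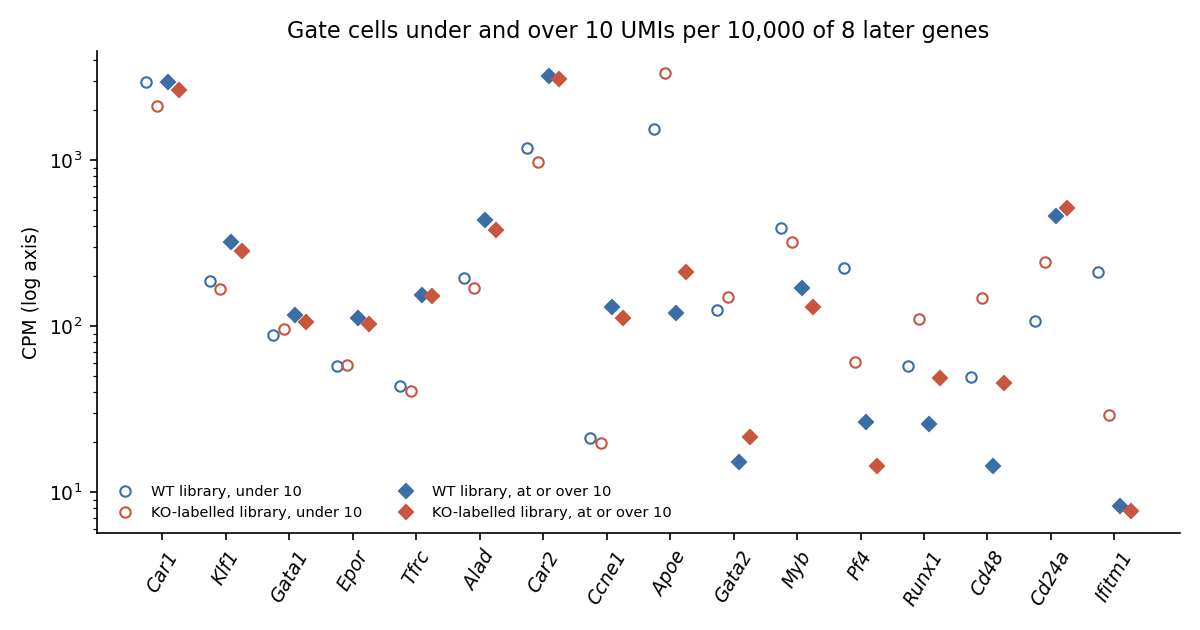
CPM (log y axis) of 16 genes in gate cells under 10 UMIs per 10000 of the 8 later genes (open circles) and at or over it (diamonds) in the WT (blue) and KO-labelled (red) libraries. Tfrc, Alad, Car2 and Ccne1 differ between the sides of the limit and little between libraries, whereas Apoe, Runx1, Cd48 and Pf4 differ between libraries on both sides.

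The genes furthest up in the KO-labelled gate were mostly outside the erythroid lists. Chst1, a carbohydrate sulfotransferase, stood at 2.21 and 22.7 CPM, a ratio of 10.3 (7.42 to 14.6), with 15.7 in other kept cells. Cnn3, an actin-binding calponin, stood at 4.31 and 26.5 CPM, a ratio of 6.15 (4.84 to 7.91) against 2.21 outside. Cited4, a transcriptional co-regulator, stood at 30.8 and 105 CPM, 3.41 times as high (3.099 to 3.748), with a ratio of 0.917 outside, and 1.49 and 1.89 under and over the limit of the 8 later genes. Cd24a, the heat-stable antigen carried by maturing red cells, stood at 133 and 361 CPM, 2.71 times as high (2.59 to 2.84), with 1.04 outside. Clca3a1 had 3.89 inside (3.29 to 4.62) and 0.721 outside, and Cd59a, a complement shield, 2.69 inside (2.405 to 3.003) and 1.14 outside. Whether the ratio differs between inside and outside was not tested. After thinning, 23.4% of WT and 55.0% of KO-labelled gate cells had a Cd24a UMI, beside 26.9% and 23.7% of granulocyte-monocyte gene cells. Under the limit of the 8 later genes Cd24a had 2.27 and over it 1.13. Cd48, a SLAM-family receptor, had a ratio of 2.22 in the gate (2.05 to 2.41) and 2.92 outside.

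Lower in the KO-labelled gate were Ptpn14, a tyrosine phosphatase, at 20.7 and 0.899 CPM, 23.0-fold lower, and Scin, the actin-severing protein scinderin, at 23.6 and 1.22 CPM, 19.4-fold lower. Ifitm1, an interferon-inducible membrane protein, stood at 197 and 19.8 CPM, 9.93-fold lower, against a ratio of 0.489 outside. After thinning, 34.2% of WT and 5.67% of KO-labelled gate cells had an Ifitm1 UMI, beside 29.0% and 9.67% of granulocyte-monocyte gene cells. Csrp3, a muscle LIM protein, was 6.06-fold lower. Of the 12 genes named as lower, all had a ratio under 1 outside the gate as well, from 0.128 for Scin to 0.665 for Marcksl1. In male cells of the gate Ptpn14 and Scin had ratios of 0.123 and 0.260, and Ifitm1 0.0427.

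**Figure D5:**
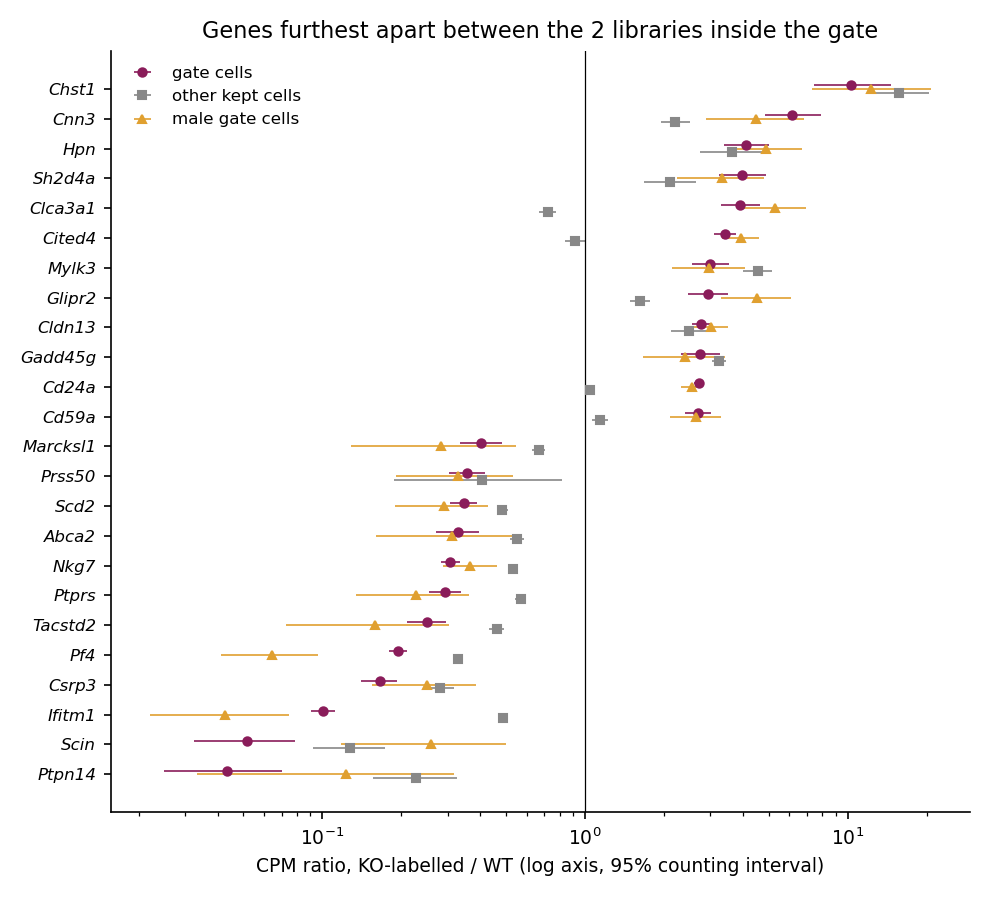
CPM ratio of the KO-labelled to the WT library (log x axis) with 95% counting intervals for the 12 genes highest and 12 lowest inside the gate, in gate cells (purple circles), other kept cells (grey squares) and male gate cells (yellow triangles). The 12 lower genes lie under 1 in all 3, while Clca3a1 and Cited4 lie over 1 inside the gate and under 1 outside it.

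Regulators also differed between the gates. Myb, a factor of immature progenitors, stood at 374 and 239 CPM, a ratio of 0.640 (0.616 to 0.664) beside 1.11 outside, and 0.823 and 0.762 under and over the limit of the 8 later genes. Cbfb, the partner of RUNX1, stood at 27.2 and 16.7 CPM, a ratio of 0.615 (0.532 to 0.710). The log2 ratio of Cbfb, -0.70, was -0.18 without the deepest 5% of cells and -0.09 among cells under the limit of the 8 later genes. Lyl1, a helix-loop-helix factor related to Tal1, was 2.09 times as high (1.93 to 2.27) and Pim1, a kinase induced by cytokines, 2.47 times (2.25 to 2.72), with 2.03 and 1.78 outside. Hoxa9 had 0.432 inside and 0.976 outside. Gata1 had 1.12 (1.05 to 1.20) and Epor 1.26 (1.16 to 1.36). Under and over the limit of the 8 later genes, Gata1 had 1.10 and 0.904, and Epor 1.01 and 0.922. Of 9 measured cyclin and CDK inhibitor genes, 1 was at least 2-fold higher in the KO-labelled gate and 0 lower. In the lists for S phase and for G2 and mitosis 0 genes were 2-fold apart. A ratio under 1 was seen for 28 of the 40 S phase genes and 37 of the 47 for G2 and mitosis, beside 57.1% of all genes. The median log2 ratios of the S phase list and the G2 and mitosis list were -0.09 and -0.13, and with TMM scaling 0.02 and -0.02. Across all settings the S phase median ran from -0.45 to 0.17. With cells thinned to 3000 UMIs, WT and KO-labelled gate cells had medians of 9 and 6 S phase UMIs. For G2 and mitosis the medians were 20 and 13. Other kept cells had 10 and 6 for S phase, and 12 and 8 for G2 and mitosis. These differences were not tested.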

How the data were processed

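UMI counts per gene were deposited by the authors as 1 matrix per library. The submitters' processing notes name Cell Ranger 2.1.1 and the mm10 build, and the file headers give a software version of 3.1.0. Library preparation followed the 10x 3′ v2 protocol, per the labels' protocols, and about 10000 sorted cells went into each library. A barcode was kept with 500 or more detected genes and no more than 10% mitochondrial UMIs, so 497 WT and 629 KO-labelled barcodes were left out.

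UMIs were summed per library over gate cells and over other kept cells and scaled to CPM. Genes at 20 CPM or more in either sum were measured. A 2-fold or 1.5-fold ratio is a rule of size, not a test. A sum of 0 was set to 3 counts in ratios. Ratios have exact conditional binomial intervals and shares have Clopper-Pearson intervals, both at 95%. For shares, cells were thinned to 3000 UMIs, leaving out shallower cells (14 WT and 9 KO-labelled gate cells). Male cells had a UMI of any of 4 Y-linked genes and no Xist UMI, and female cells had 2 Xist UMIs or more with none from those genes.

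The text names the 14 highest and 10 lowest genes by the geometric mean of both libraries' gate-to-other ratios, among genes 1.5-fold apart the same way in both, and the 12 highest and 12 lowest KO-labelled to WT ratios in the gate. Each had 20 CPM and a UMI in 10% of cells on its higher side, and ribosomal, mitochondrial, sex-linked, immunoglobulin segment, haemoglobin, gate and unnamed genes were left out. Erythroid list members could also be named, and of each other list at most 4 members. The members of the gate and the 32 lists were chosen with earlier results of these data known. Of each such list the text gives examples. The wider GATA words replaced AGATAA alone, which stands in 11.2% of all promoters, after the promoters had been seen. Car1 is in no row of the promoter table used.

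Tested on simulated sums for the comparison of libraries inside the gate, 99 of 100 genes changed 3-fold passed 2-fold, as did 0 of 100 changed 1.5-fold and 0 of 5157 unchanged ones. The simulated sums held counting error alone, with no variation between cells, animals or libraries. They check the calculation and cannot say how many of the genes counted here differ for such reasons. Python 3.11.15, numpy 2.4.6, scipy 1.17.1, pandas 2.3.3, matplotlib 3.10.9 and, for TMM factors alone, edgeR 4.0.16 were used.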

Additional observations from a re-analysis of the deposited data

Results flagged for a closer look

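Ighm, the immunoglobulin mu chain gene, lay on opposite sides of 1.5-fold inside and outside the gate, among the listed and named genes. Inside the gate the KO-labelled to WT ratio was 2.63 (2.17 to 3.21), from 7.84 to 20.6 CPM, and outside it 0.241, from 308 to 74.0 CPM. Among male gate cells it was 1.53. The difference between these ratios was not tested. The B cell list summed to 20 CPM in the WT gate and 30 CPM in the KO-labelled gate, with Pax5 at 0 in both.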

How the results depend on the processing

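The analysis was repeated under 18 other settings, 1 of them (gate cells under 10 UMIs per 10000 of the 8 later genes) chosen after seeing the data. Of 92 values for gate shares and gene counts, 31 moved beyond the counting interval or by over 1.5 times. The WT and KO-labelled gate shares were 9.76% and 7.91% with a gate minimum of 10, 13.3% and 12.2% with 3, 9.977% and 8.86% when UMIs of at least 2 gate genes were asked for, 3.07% and 3.19% without Car1, and 10.2% and 8.42% without the deepest 5% of cells. The WT share was 16.3% with 1000 genes and 5% mitochondrial UMIs as cell limits and 13.2% among male cells, and the KO-labelled share 8.63% under 10 of the later genes. Genes at least 2-fold higher and lower in the gate in both libraries numbered 197 and 645 without Car1, 72 and 174 at a minimum of 50 CPM and 196 and 1007 at 5 CPM, while 187 were higher with TMM scaling. At 1.5-fold they numbered 392 and 771. Genes higher and lower in the KO-labelled gate numbered 18 and 9 at 50 CPM, 96 and 144 at 5 CPM, and 108 and 131 at 1.5-fold. The lower ones alone numbered 63 without Car1, 74 among male cells and 61 with equal weights for the bands, where the genes that reach 20 CPM are chosen at those weights (45 of the same 5515 genes). TMM scaling moved the median log2 ratio between the libraries over all genes from -0.04 to 0.07, and that between gate and other cells from -0.02 to 0.16.

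Among the log2 ratios of single genes and the medians of lists, 568 of 1544 values moved, among them 169 gene ratios between the libraries, and another 24 changed sign after being called. Without the deepest 5% of cells these were Rhd at -0.10, Ccne1 at -0.046, Tfrc at -0.034, and the medians of haem synthesis (-0.077), iron (-0.071), membrane (-0.0084), early erythroid (-0.10), megakaryocyte (0.62), stem cell (0.18), granulocyte and monocyte (0.14), interferon-stimulated (0.068), cytokine receptor (0.051) and apoptosis genes (-0.033). Under 10 of the later genes they were Rhd at -0.27, Tfrc at -0.10, Ccne1 at -0.082, and the medians of haem synthesis (-0.16), iron (-0.10), early erythroid (-0.15), megakaryocyte (0.42), stem cell (0.27), cytokine receptor (0.067) and apoptosis genes (-0.051). With each cell weighing the same, the megakaryocyte median was 0.19. The cause was not tested. No paired analysis was possible because each genotype has 1 library, and for the same reason no replicate could be left out. Depth limits genes near 20 CPM most.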
